A study of Mus musculus with 6 samples.

Results

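The NOTCH genes described here are 10 mouse genes taken by name. They are the receptors Notch1, Notch2, Notch3 and Notch4, the ligands Jag1, Jag2 and Dll1, and the target genes Hes1, Hey1 and Nrarp. All 10 were found among the 53465 genes in the deposited counts, and 8 of them had enough counts to be tested between the lines. RNA was sequenced from 3 libraries of parental (P) 4T1 cells and 3 libraries of axitinib-resistant (AxR) 4T1 cells. The 4T1 line, from a mammary carcinoma of the mouse, spreads spontaneously after implantation into the mammary fat pad of Balb/c mice. AxR cells were grown out of lung or lymph node metastases of mice that received axitinib, a VEGF receptor inhibitor, at 100 mg/kg/day both before and after removal of the primary tumor, and were then held in culture with 0.5 μM axitinib for over 2 months. P cells are called vehicle-treated in the study and carry no treatment label, although the growth description attached to all 6 samples names 0.5 μM axitinib. Passage through the animal, growth as a metastasis, selection of cells and drug in the medium all go with the AxR line, and their parts cannot be told apart.

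NOTCH receptors are cut by furin on their way to the surface and are activated by ligands on a neighboring cell. Ligand endocytosis exposes the receptor to ADAM proteases, γ-secretase then frees the intracellular domain, and this domain joins RBPJ and a Mastermind protein on DNA to switch on targets such as the HES and HEY repressors and Nrarp. In the mammary gland the pathway is known for its part in luminal cell fate, and in tumors JAG1 is known as a ligand that can be shown to neighboring tumor and stromal cells.

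The libraries held between 15495260 and 17294525 estimated counts, and 13550 genes passed the filter on low counts. Replicates of the same line differed beyond sampling noise (5.03 to 19.4 in chi-square for each degree of freedom), and each was counted as a sample of its own. Neither the labels nor the methods say whether the replicates were separate cultures, so the p-values measure only the spread between these libraries. The summed level of the 10 epithelial markers was between 2130 and 2350 CPM in P libraries, CPM being counts scaled to a common normalized library size, and between 3210 and 3390 CPM in AxR libraries. Krt18, Cdh1, Krt7 and Krt8 made up most of it, and Krt19 and Cldn4 were called lower in AxR cells. Of the basal markers Krt5 was at 0, while Krt14 and Trp63 were called higher in AxR cells at low levels. Their means were 1.09 and 0.0622 CPM in P and 5.95 and 1.11 CPM in AxR cells. Trp63 had at most 2 counts in a P library and passed the filter on low counts only through its AxR libraries. The 11 endothelial markers summed to between 0.486 and 0.807 CPM in P and between 0.444 and 0.511 CPM in AxR libraries, and Kdr, Emcn, Robo4, Sox17 and Erg were at 0 in all 6. The 8 leukocyte markers summed to at most 0.571 CPM and the 6 lung epithelial markers to at most 0.425 CPM in any library. The 7 mural markers summed to between 0.519 and 0.789 CPM in P and between 1.02 and 1.21 CPM in AxR libraries. Of the 8 fibroblast markers, which summed to between 22.4 and 24.0 CPM in P and between 10.2 and 11.6 CPM in AxR libraries, nearly all of the level came from Pdgfra.

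In AxR cells the transcripts of Jag1, Hes1 and Nrarp were lower than in P cells, those of Notch2 and Jag2 were higher, and Notch4 was higher at a level of about 1 CPM. Of the 8 tested members 3 rose and 3 fell, taking an adjusted p under 0.05 in edgeR's quasi-likelihood (QL) test, where Benjamini-Hochberg adjustment covered every tested gene. The call of Notch4, the third of those that rose, was lost in 9 of 12 alternatives, which left 2. The lines differed widely at this threshold, with 63.5% of the 13550 tested genes called, 32.8% of the 13550 being higher and 30.8% lower in AxR cells, so the share of members called, 75.0%, lay near the background. The median absolute log2 fold change was 0.74 over the 8 tested members and 0.353 over all tested genes, while the signed medians were -0.18 and 0.006. Calls of at least 1 on the log2 scale were made for Jag1 and Hes1, both lower, where 4.72% of all tested genes were lower and 7.99% higher by as much. For 6 of the 8 the CPM values of the lines were fully separate, as they were for 68.3% of all tested genes. An exact permutation test of any 1 of these 6 gives p = 0.1 (two-sided), and 3 libraries against 3 cannot go lower. In bulk RNA, fewer cells that express a gene and less RNA in each cell cannot be told apart.

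**Figure D1:**
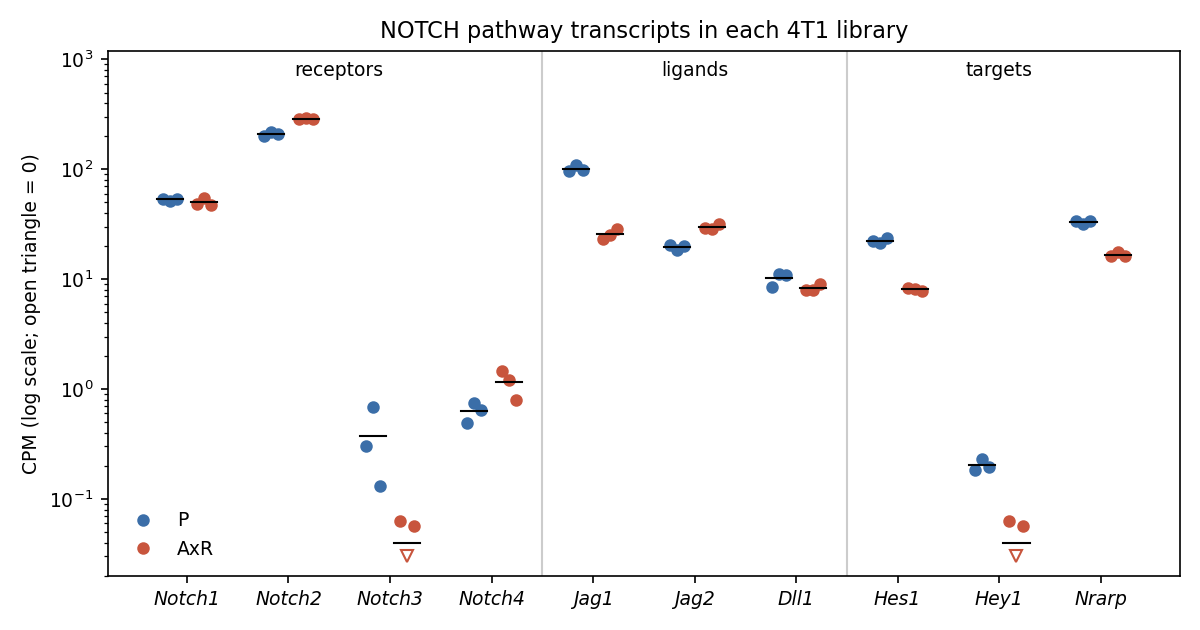
Level of each of the 10 NOTCH genes in every library, in CPM on a log axis, with P libraries in blue, AxR libraries in red, black lines at the mean of 3 libraries and open triangles for libraries at 0. Jag1, Hes1 and Nrarp were lower in every AxR library than in any P library, Notch2 and Jag2 were higher, and Notch3 and Hey1 lay under 1 CPM throughout.

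Promoter windows of 8 of the 10 members were found in the RefSeq table of GRCm38.p6, and Hes1 and Hey1 were not matched in it. The 250 bases before the start site in RefSeq are shown for the 4 members with a window that changed at the smallest adjusted p. These are the lower Jag1 and Nrarp and the higher Notch2 and Jag2. Gene positions given below come from GENCODE, which places some start sites elsewhere. By those positions the Jag2 window lies wholly inside the gene, the Jag1 window partly and the Notch2 window by a few bases. Among windows not shown, that of Notch1 and the first of Dll1 also lie inside their genes. They lie at chr2:137116521-137116770 on the minus strand for Jag1, chr2:25180508-25180757 on the plus strand for Nrarp, chr3:98013288-98013537 on the plus strand for Notch2 and chr12:112929496-112929745 on the minus strand for Jag2. Sequences run 5′ to 3′ on the gene's strand, and capitals mark the N box, CACNAG on either strand, which HES repressors are known to read.
Jag1: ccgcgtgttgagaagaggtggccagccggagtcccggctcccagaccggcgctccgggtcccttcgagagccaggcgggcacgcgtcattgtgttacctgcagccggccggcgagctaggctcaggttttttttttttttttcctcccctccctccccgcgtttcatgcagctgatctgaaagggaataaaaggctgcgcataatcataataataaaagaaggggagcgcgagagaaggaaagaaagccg
Nrarp: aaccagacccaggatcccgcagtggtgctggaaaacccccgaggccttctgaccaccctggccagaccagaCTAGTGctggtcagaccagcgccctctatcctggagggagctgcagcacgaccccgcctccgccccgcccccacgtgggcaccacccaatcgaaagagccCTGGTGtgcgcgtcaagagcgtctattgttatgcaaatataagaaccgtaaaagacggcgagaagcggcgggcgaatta
Notch2: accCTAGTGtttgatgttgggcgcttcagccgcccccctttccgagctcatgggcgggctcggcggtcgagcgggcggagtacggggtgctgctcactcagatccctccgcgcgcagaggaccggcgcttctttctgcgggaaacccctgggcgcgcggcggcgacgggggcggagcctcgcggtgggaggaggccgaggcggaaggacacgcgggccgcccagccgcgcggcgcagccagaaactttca
Jag2: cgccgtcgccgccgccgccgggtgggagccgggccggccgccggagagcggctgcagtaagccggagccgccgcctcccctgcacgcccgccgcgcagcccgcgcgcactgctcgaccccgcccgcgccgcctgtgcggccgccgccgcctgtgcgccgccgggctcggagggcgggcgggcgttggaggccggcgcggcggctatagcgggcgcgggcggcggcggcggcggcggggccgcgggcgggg
The core letters read by RBPJ, TGGGAA, were on neither strand of any of the 9 windows of the 8 members, and so neither was the longer CGTGGGAA that contains them, where 21.6% and 0.636% of all 32851 windows of this length hold them. The N box was in the windows of Nrarp (2 matches), Notch3 (2), Notch1 (1) and Notch2 (1), and in 36.7% of all windows. The windows differed in base composition, with 87.2% G or C in Jag2, 72.0% in Notch2, 61.2% in Nrarp and 57.2% in Jag1, against a median of 52.4% over all windows. A match describes letters in this window only.

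Among the receptors, Notch2 was the main transcript in both lines and was higher in AxR cells. Notch2 (ENSMUSG00000027878.11, chromosome 3 of GRCm38 from 98013527 to 98150361, plus strand) had 201, 220 and 211 CPM in the P libraries and 287, 293 and 285 CPM in the AxR libraries. All 3 AxR libraries lay above all P libraries, and the spread within a line was small beside the gap. Notch2 had a log2 fold change of 0.45 (standard error 0.049, 95% interval from 0.35 to 0.56, adjusted p = 1.03e-06 by the edgeR QL test), or 1.37-fold. Chromosome 3 as a whole moved the same way, its 717 tested genes having a median log2 fold change of 0.32 and the 25 tested genes on each side of Notch2 one of 0.26, and the part of this shift in the change of Notch2 was not tested. A short gene on the same strand, Gm42820, shares 541 of the 10782 exon bases of Notch2 and had at most 24.4 estimated counts in a library.

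Notch1, a receptor known in mammary tumors and leukemia (ENSMUSG00000026923.15, chromosome 2 from 26457903 to 26516663, minus strand), had 54.0, 51.5 and 54.0 CPM in the P libraries and 48.1, 55.3 and 47.4 CPM in the AxR libraries. The lines overlapped, with AxR replicate 2 the highest of the 6 and the other 2 AxR libraries the lowest. Its log2 fold change was -0.08 with a 95% interval from -0.23 to 0.06 (adjusted p = 0.312 from the same edgeR test), so a change beyond this interval in either direction was not seen. The opposite-strand RNA 0610009E02Rik shares 1068 of its 14232 exon bases and had up to 13.4 estimated counts.

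Notch4, a receptor known from endothelium among other tissues (ENSMUSG00000015468.14, chromosome 17 from 34564268 to 34588503, plus strand), was near the lower limit of what these libraries measure. It had 8, 13 and 10 estimated counts in the P libraries and 23, 19 and 14 in the AxR libraries, or 0.486, 0.750 and 0.651 CPM against 1.46, 1.21 and 0.796 CPM. The lowest AxR library lay only just above the highest P library. With 8 counts in P replicate 1, Notch4 passed the filter on low counts only with its AxR libraries counted in. Where at least 10 counts were needed in every library, Notch4 was not tested. The log2 fold change was 0.86 with a wide interval from 0.11 to 1.60 (adjusted p = 0.0425 by the edgeR QL test), and in 9 of the 12 alternatives that tested Notch4 the adjusted p from edgeR, DESeq2 or limma missed 0.05, reaching 0.169. It missed when P replicate 1, 2 or 3 or AxR replicate 1 or 2 was left out (log2 fold changes of 0.71, 1.01, 0.88, 0.66 and 0.82).

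Notch3, a receptor of vascular smooth muscle and of some mammary progenitors (ENSMUSG00000038146.7, chromosome 17 from 32120820 to 32166852, minus strand), had too few counts to be tested. Its estimated counts were 5, 12 and 2 in the P libraries and 1, 0 and 1 in the AxR libraries. A count of 3, taken here as the floor, corresponds to between 0.17 and 0.195 CPM, so all 3 AxR libraries and P replicate 3 were at or under it. Over the 3 libraries of each line, 19 counts in P against 2 in AxR cells give a level 9.48-fold higher in P cells, with an exact 95% interval from 2.29 to 83.9 that covers counting error only, and P replicate 2 gave most of the counts.

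The ligands moved in different directions. Jag1, the Serrate-type ligand (ENSMUSG00000027276.7, chromosome 2 from 137081456 to 137116644, minus strand), had the largest change of the tested members. It had 97.5, 109 and 98.3 CPM in the P libraries and 23.3, 25.5 and 28.6 CPM in the AxR libraries. The lowest P library lay far above the highest AxR library. Jag1 thus had a log2 fold change of -1.97 (standard error 0.075, 95% interval from -2.14 to -1.81, adjusted p = 1.38e-11 by the edgeR QL test), which is 3.93-fold lower. The 25 tested genes on each side of Jag1 were centred at a log2 fold change of 0.02 (median), and the 1066 tested genes of chromosome 2 at -0.09.

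Jag2, the other Serrate-type ligand (ENSMUSG00000002799.6, chromosome 12 from 112907819 to 112929776, minus strand), had 20.3, 18.3 and 20 CPM in the P libraries and 29.2, 28.8 and 31.9 CPM in the AxR libraries. Its direction was opposite to that of Jag1, and the lines did not overlap. This came to a log2 fold change of 0.62 (standard error 0.077, 95% interval from 0.45 to 0.78, adjusted p = 4.72e-06 from the same edgeR test), or 1.53-fold higher, where its neighbors on both sides had a median log2 fold change of -0.15.

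Dll1, a Delta-type ligand (ENSMUSG00000014773.13, chromosome 17 from 15367354 to 15376872, minus strand), had 8.44, 11.2 and 11 CPM in the P libraries and 7.99, 8.03 and 8.98 CPM in the AxR libraries. P replicate 1 lay within the AxR libraries and the other 2 P libraries lay above them. The log2 fold change of -0.29 (95% interval from -0.56 to -0.02) did not pass after adjustment (adjusted p = 0.0568 by the edgeR QL test). Without P replicate 1 it was -0.41 and without AxR replicate 3 it was -0.35 (adjusted p = 0.0113 and 0.0385 from edgeR), both past the threshold, and over all alternatives the adjusted p lay between 0.0113 and 0.206. An RNA on the opposite strand, A930024N18Rik, shares 867 of the 4219 exon bases of Dll1 and had up to 31.2 estimated counts, and whether strand was used in counting is not given in the sources used here.

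Both tested target genes fell. Hes1, a basic helix-loop-helix repressor and the classic readout of NOTCH activity (ENSMUSG00000022528.7, chromosome 16 from 30064384 to 30067796, plus strand), had 22.4, 21.4 and 23.6 CPM in the P libraries and 8.37, 8.09 and 7.79 CPM in the AxR libraries. The replicates of each line lay close together and far from those of the other line. For Hes1 the log2 fold change was -1.47 (standard error 0.089, 95% interval from -1.66 to -1.28, adjusted p = 1.93e-09 by the edgeR QL test), which is 2.78-fold lower. Chromosome 16 was also lower, the median of its 397 tested genes being -0.32 and that of the neighbors of Hes1 -0.33, which left -1.15 between Hes1 and its chromosome.

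Nrarp, an ankyrin repeat protein that is induced by NOTCH and restrains it in turn (ENSMUSG00000078202.3, chromosome 2 from 25180758 to 25183339, plus strand), had 33.6, 32.0 and 33.7 CPM in the P libraries and 16.4, 17.8 and 16.1 CPM in the AxR libraries. Here too every AxR library lay below every P library. For Nrarp the log2 fold change was -0.98 (standard error 0.074, 95% interval from -1.14 to -0.82, adjusted p = 2.33e-08 from the same edgeR test), or 1.97-fold lower, with a median of -0.01 over its neighbors. An antisense RNA that overlaps 2051 of the 2582 exon bases of Nrarp had no count in any library.

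Hey1, a repressor of the related HEY family (ENSMUSG00000040289.8, chromosome 3 from 8663359 to 8667256, minus strand), was at the limit of detection. It had 3, 4 and 3 estimated counts in the P libraries and 1, 0 and 1 in the AxR libraries. In single libraries only P replicate 2 was above the floor of 3 counts. Over the 3 libraries of each line, 10 counts in P against 2 in AxR cells give a level 4.99-fold higher in P cells, with an exact 95% interval from 1.06 to 46.8 for counting error only.

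**Figure D2:**
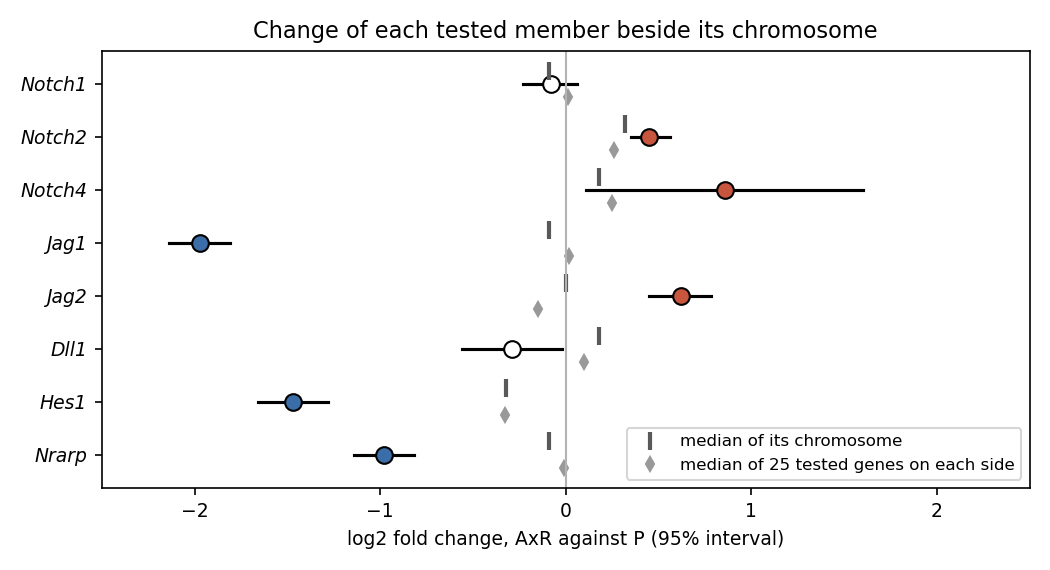
Log2 fold change, AxR against P, of the 8 tested NOTCH genes with 95% intervals, red where the adjusted p from edgeR passed 0.05 upward, blue where it passed downward and white where it did not. Grey bars mark the median of the gene's chromosome and grey diamonds that of its neighbors (25 tested genes to either side). Jag1, Hes1 and Nrarp lie at -1.97, -1.47 and -0.98, away from both, as does Jag2 at 0.62 on the higher side. The interval of Notch4 covers both of its medians (0.18 and 0.25).

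Levels of different genes were set side by side per length, as counts per exon base scaled to the same total in every library (TPM). In P cells the order was Notch2 (65.6 ± 3.08 TPM, SD, n = 3), Jag1 (58.6 ± 4.17 TPM), Nrarp (43.1 ± 1.23 TPM), Hes1 (37.0 ± 1.27 TPM), Notch1 (12.6 ± 0.359 TPM), Jag2 (9.44 ± 0.526 TPM) and Dll1 (8.13 ± 1.14 TPM), followed by Notch4, Hey1 and Notch3 at 0.262 ± 0.0547, 0.209 ± 0.0267 and 0.157 ± 0.121 TPM. The libraries of Jag2 overlapped those of Dll1, and those of the last 3 genes overlapped each other. In P cells the mean TPM of Notch2 lay above that of 79.8% of the tested genes, and those of Jag1, Nrarp and Hes1 above 77.3%, 69.6% and 65.6%. In AxR cells Notch2 stayed at the top with 86.0 ± 3.67 TPM, and Nrarp followed with 21 ± 1.31 TPM. Jag1 (14.3 ± 2.11 TPM), Jag2 (13.9 ± 1.34 TPM) and Hes1 (12.8 ± 0.102 TPM) came next and overlapped. Below them in the mean were Notch1 at 11.4 ± 1.06 TPM, Dll1 at 6.36 ± 0.703 TPM and Notch4 at 0.458 ± 0.115 TPM. Jag1 also overlapped Notch1, with its lowest library at 12.3 TPM and the highest of Notch1 at 12.5 TPM. There Notch2 lay above 85.6% of the tested genes in mean TPM, Nrarp above 50.9%, Jag1 above 40.6% and Hes1 above 38.0%. With the longest annotated transcript as the length, Hes1 stood above Nrarp in P cells (40.2 against 33.7 TPM), and Jag1 came after Jag2, Hes1 and Notch1 in AxR cells (11.7 against 14.9, 13.9 and 13.4 TPM).

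The make-up of the receptor and ligand transcripts was described from the same TPM values, with no test. Notch2 made up 82.7%, 84.3% and 83.4% of the summed receptor level in the P libraries and 88.2%, 87.1% and 88.5% in the AxR libraries, and Notch1 nearly all of the rest. The receptor sum was 78.6 ± 2.98 TPM in P and 97.9 ± 4.33 TPM in AxR cells (SD, n = 3). For the ligands the mix differed more between the lines. Jag1 made up 77.3%, 77.9% and 75.5% of the summed level of Jag1, Jag2 and Dll1 in the P libraries and 39.6%, 42.1% and 42.3% in the AxR libraries. Jag2 took 12.4% ± 1.3 of the sum in P and 40.2% ± 1.21 in AxR cells, so that the ratio of Jag1 to Jag2 per length went from between 5.73 and 7.09 in the P libraries to between 0.952 and 1.07 in the AxR libraries. The summed level of the 3 ligands was 76.2 ± 4.38 TPM in P and 34.5 ± 4.11 TPM in AxR cells, and that of the 3 targets was 80.3 ± 2.23 and 33.8 ± 1.35 TPM. Per length, the ligand sum lay below the receptor sum in every library of both lines, and the lines differed in the size of the gap. In the P libraries the sums were close, at 74, 81.2 and 73.3 TPM for ligands against 76.9, 82 and 76.8 TPM for receptors. In the AxR libraries they were far apart, at 31.1, 33.5 and 39.1 TPM against 92.9, 100 and 100 TPM. Dll4, described below, was not part of the ligand sum.

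**Figure D3:**
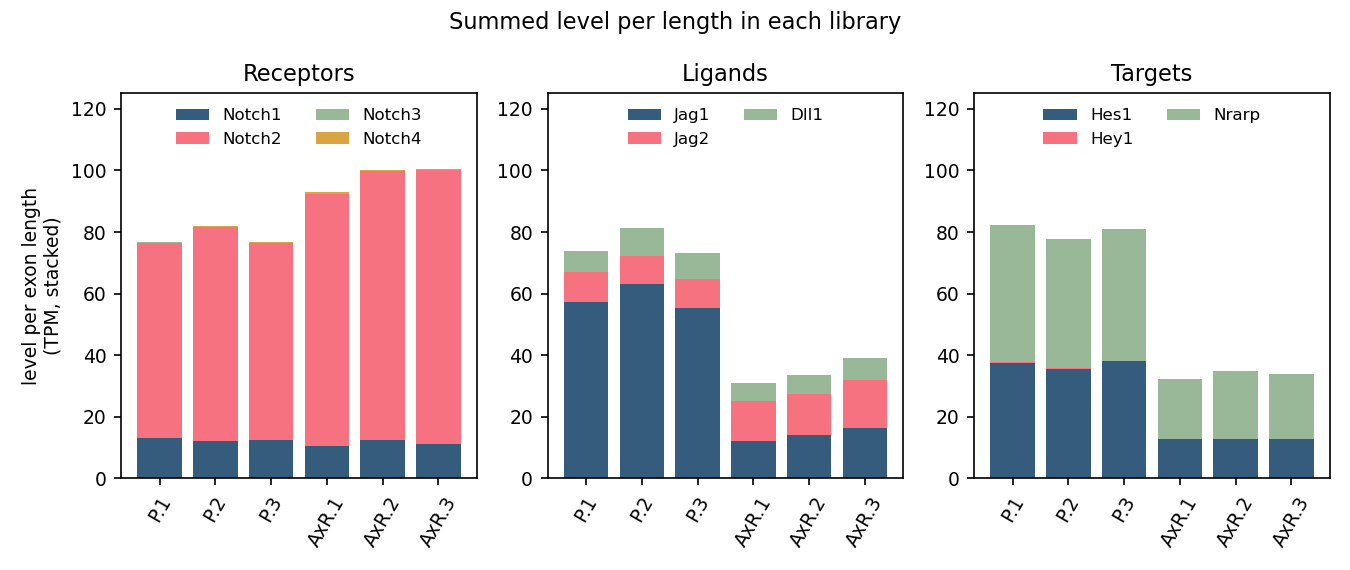
Level per exon length, in TPM, of the 4 receptors, the 3 ligands and the 3 targets stacked by gene, with a bar for each library. The ligand and target bars of the AxR libraries (31.1 to 39.1 and 32.3 to 35.0 TPM) are shorter than those of the P libraries (73.3 to 81.2 and 77.8 to 82.2 TPM), while the receptor bars are taller.

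Around these 10 genes, 84 other genes of the pathway were examined, of which 69 had enough counts to be tested. The edgeR QL test called 20 higher and 29 lower in AxR cells, and their median log2 fold change was -0.13. The share called, 71.0%, was again near that of all tested genes, 63.5%, and the median absolute log2 fold change of 0.30 was near the 0.353 of all tested genes. Of the 69, 6 were called with a change of at least 1 on the log2 scale, a size that 12.7% of all tested genes reached with a call.

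Of the other ligands, Dll4, the Delta-type ligand known from sprouting endothelium, had the largest change in the pathway. It had 6.44, 8.36 and 5.80 CPM in the P libraries and 0.571, 0.510 and 0.17 CPM in the AxR libraries, the last of them at the floor of 3 counts. Summed over libraries, 340 counts in P against 20 in AxR cells give a 17.0-fold lower level, with an exact 95% interval from 10.8 to 28.1 for counting error, while the fitted log2 fold change of -4.05 ± 0.29 (standard error) had an adjusted p of 1.39e-08 in edgeR. With 9, 8 and 3 estimated counts in the AxR libraries, Dll4 entered the edgeR test through its P libraries, as Hey2 did below. Its place in that test thus depends on a filter met in P cells only. Where at least 10 counts were needed in every library, Dll4 was not tested. The endothelial markers were near 0 and went in different directions. Cdh5 had 7, 4 and 5 counts in the P libraries and 0, 0 and 1 in the AxR libraries, and Pecam1 had 0, 6 and 1 against 0, 1 and 0. Vwf, with 0, 1 and 0 counts in P and 3, 3 and 4 in AxR libraries, went the other way. So did Esam, with 0, 2 and 1 against 4, 1 and 3. Tek and Tie1 had at most 2 counts, 5 of the 11 were at 0 throughout, and the part of endothelial cells in the fall of Dll4 was not tested. Dlk2, a membrane protein related to the Delta ligands, had a log2 fold change of -0.18 and was not called (adjusted p = 0.352 from edgeR), and Dll3 and Dlk1 were at or under 3 counts in every library.

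Among the other HES and HEY genes only Hey2 and Hes6 could be tested. Hey2 had 14, 14 and 19 estimated counts in the P libraries and 2 in each AxR library, under the floor of 3, so that it entered the test through its P libraries. This is a level 7.82-fold lower by summed counts, with an exact 95% interval from 3.34 to 22.4 for counting error. Hes6, which is known to oppose Hes1, had 6.65 ± 1.22 CPM in P and 6.01 ± 0.139 CPM in AxR cells (SD, n = 3) and was not called (log2 fold change -0.14, adjusted p = 0.408 from edgeR). Hes2, Hes5, Heyl and Helt had no count in any library, which allows at most 0.195 CPM each in the library with the highest floor. Of 10 genes reported as NOTCH targets elsewhere, 6 were tested, 4 fell and none rose, and the 66.7% called was near the 63.5% of all tested genes. Myc fell from 928 ± 48.4 to 500 ± 87.4 CPM (SD, n = 3, log2 fold change -0.89, adjusted p = 0.000689 from edgeR), and the cyclin gene Ccnd1 from 1170 ± 11.4 to 808 ± 66.0 CPM (log2 fold change -0.53). Sox9 and Gata3, transcription factors of mammary epithelium, fell by 0.38 and 0.36 on the log2 scale, while Cdkn1a (0.00) and Ephb4 (0.09) were not called.

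The 4 E3 ligases that ubiquitinate NOTCH ligands and drive their endocytosis, Neurl1a, Mib2, Mib1 and Neurl1b, were called higher, as were 32.8% of all tested genes, with log2 fold changes of 2.20, 0.63, 0.60 and 0.41. Neurl1a rose from 2.73, 2.88 and 2.47 CPM in the P libraries to 10.8, 12.9 and 13.5 CPM in the AxR libraries (adjusted p = 3.49e-09 by the edgeR QL test). Mib1, the main ligase for the ligands in development, had 264 ± 20.6 CPM in P and 401 ± 38.4 CPM in AxR cells (SD, n = 3), while the tested genes of its chromosome 18 had a median log2 fold change of 0.50 and its neighbors one of 0.54. The medians of the 25 tested genes on each side of Neurl1a, Mib2 and Neurl1b were 0.06, 0.28 and 0.01.

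Of the 9 tested fringe and O-glycosylation genes, which decorate the EGF repeats of the receptors, 5 fell and none rose, and the share called, 55.6%, was below the 63.5% of all tested genes. Poglut2, a glucosyltransferase, had a log2 fold change of -1.01 and Lfng, the fringe that tunes the response to Jagged and Delta ligands, of -0.93, with 6.28 ± 0.514 CPM in P and 3.30 ± 0.0687 CPM in AxR cells (SD, n = 3, adjusted p = 4.53e-05 from edgeR). Poglut1 and Eogt fell by 0.51 and 0.43, with their neighbors at -0.39 and 0.03 and the median of chromosome 16, which holds Poglut1, at -0.32. Pofut1, which adds the fucose that fringes extend, had a log2 fold change of -0.04 and was not called (adjusted p = 0.598 from edgeR). Of the 9 tested cleavage genes 2 rose and 3 fell, or again 55.6% called against 63.5% of all tested genes. Psen2, a catalytic subunit of γ-secretase, had the largest change (log2 fold change -0.90, with neighbors at -0.55). Furin and Ncstn fell by 0.40 and 0.30, with their neighbors at -0.02 and -0.21 and the median of chromosome 1, which holds Ncstn, at -0.29. Aph1a rose by 0.27 with the median of chromosome 3 at 0.32. The sheddase genes Adam17 and Adam10 had log2 fold changes of 0.25, which passed, and 0.12, which did not.

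In the nucleus, Rbpj, the DNA-binding partner of the cleaved receptors, had 694, 619 and 674 CPM in the P libraries and 624, 636 and 645 CPM in the AxR libraries. The lines overlapped, and the log2 fold change of -0.06 (95% interval from -0.17 to 0.05) was not called (adjusted p = 0.306 by the edgeR QL test). Of the 9 tested genes of the activation complex 4 rose and 3 fell, or 77.8% called against 63.5% of all tested genes. The coactivators Maml1, Crebbp and Maml2 fell by 0.55, 0.54 and 0.34 on the log2 scale, Kat2b rose by 0.39, and Crebbp lies on chromosome 16 with its median of -0.32. Of the 15 corepressor genes 4 rose and 8 fell, or 80% called against the same 63.5%. The Groucho-family gene Tle4 changed most, with 15.1 ± 1.79 CPM in P and 3.77 ± 0.0928 CPM in AxR cells (SD, n = 3, log2 fold change -2.00, adjusted p = 3.45e-09 from edgeR). Ctbp1 and Tle1 were among the others that fell, at -0.51 and -0.46.

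Of the 13 genes of receptor trafficking and turnover 6 rose and 4 fell, or 76.9% called against 63.5% of all tested genes. Numbl, an endocytic adaptor related to the NOTCH inhibitor Numb, rose from 3.00 ± 0.278 to 9.55 ± 0.364 CPM (SD, n = 3, log2 fold change 1.67, adjusted p = 4.46e-08 from edgeR), while Numb itself had a log2 fold change of -0.15 and was not called (adjusted p = 0.0996 from edgeR). Itch, an E3 ligase that turns over NOTCH receptors, fell by 0.67, with its neighbors at -0.37. The Deltex-family genes Dtx3l and Dtx2 went in opposite directions, with log2 fold changes of 0.89 and -0.48. Fbxw7, which marks the cleaved receptor for degradation, rose by 0.37 beside a median of 0.32 on its chromosome 3.

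**Figure D4:**
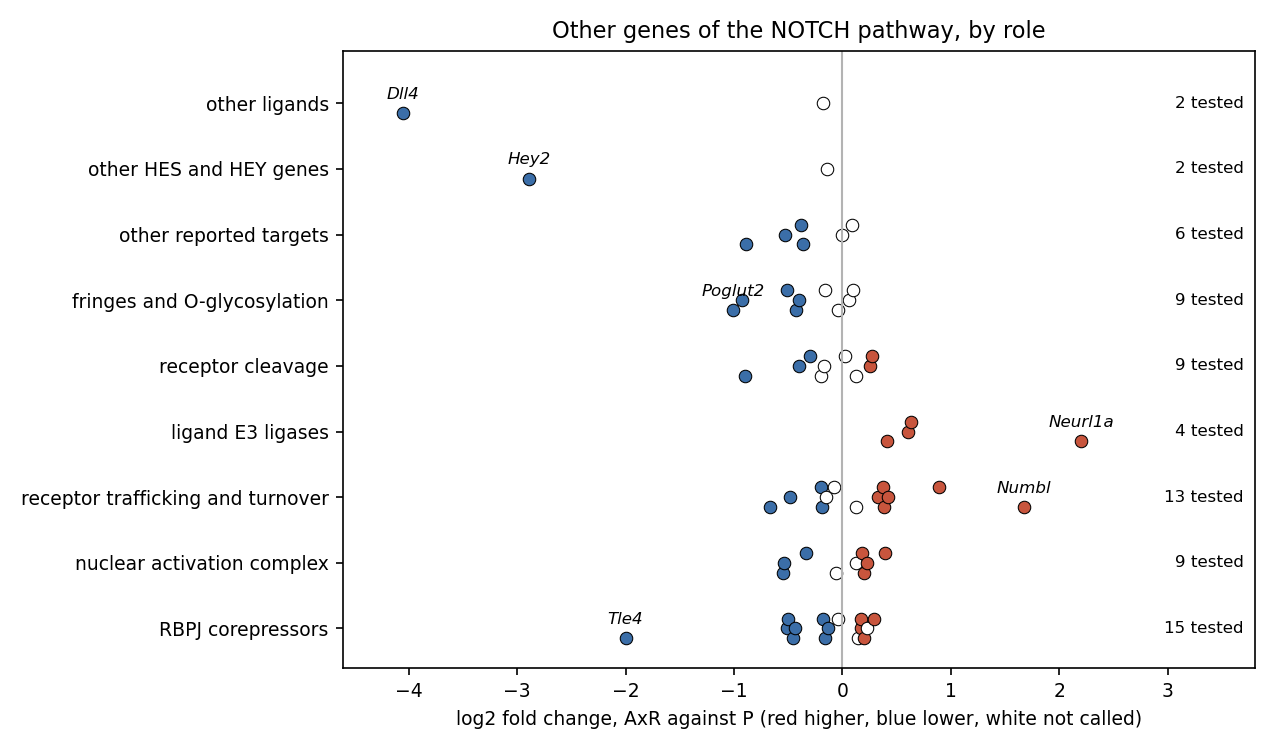
Log2 fold change, AxR against P, of the 69 tested genes of the pathway outside the 10 members, a point for each gene and a row for each role, colored by the direction of calls from edgeR at an adjusted p under 0.05. Dll4 (-4.05) and Hey2 (-2.89) lie farthest to the left, Neurl1a (2.20) and Numbl (1.67) farthest to the right, and all 4 ligand E3 ligases lie above 0.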

How the data were processed

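Libraries were prepared by the authors with a stranded poly(A) kit from 3 P and 3 AxR samples, and per the labels reads were checked with FastQC 0.11.5, aligned to GRCm38 with STAR 2.6.0a and counted with RSEM 1.3.1. The authors deposited the estimated counts per gene (expected counts), before the filtering and upper quartile normalization named in their methods. RSEM divides reads shared between genes, so counts need not be whole. Strand settings are not given in the sources used here.

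After rounding, genes with low counts were removed (filterByExpr) and upper quartile factors computed. A quasi-likelihood model with robust dispersions and the line as its only term was fitted in edgeR 4.0.16 (R 4.3.3), with Benjamini-Hochberg adjustment over 13550 genes. Standard errors and 95% intervals follow from the F statistic. Symbols, positions and exon lengths came from a later GENCODE release of the same build. Exact permutation tests used log2(CPM + 0.5). The procedure was tested on simulated data. The members and lists were chosen with earlier results of these data known. Named genes are all members and, in each list, at most 4 called genes by size of change, with others where a count needed them; a few genes are not reported here. Poglut2, Poglut3 and Tle5 were matched by older symbols. Alternatives were TMM, library size only, DESeq2 1.42.0, limma-voom (limma 3.58.1), other count filters, a replicate block, and each library left out.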

Additional observations from a re-analysis of the deposited data

How the results depend on the processing

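Where calls also had to change by 1 or more on the log2 scale, 0 members were higher and 2 lower, and 2 and 4 of the other pathway genes, against 7.99% and 4.72% of all tested genes. With all 6 libraries no member reached a log2 fold change of 1 upward in edgeR, DESeq2 or limma-voom, so the count at an unadjusted p under 0.05 was also 0 in each. Without a low-count filter 5 members were lower, Dll1 and the otherwise untested Notch3 (19 counts in P against 2 in AxR cells) being added. The share of all genes called in this setting is not given, so that count has no background beside it. With each library left out in turn, 2 to 3 members were higher and 3 to 4 lower, and 19 to 22 and 27 to 30 of the other genes. Under every alternative run Jag1 (-2.05 to -1.90), Hes1 (-1.51 to -1.44), Nrarp (-1.02 to -0.95), Notch2 (0.42 to 0.49) and Jag2 (0.57 to 0.65) kept their direction and an adjusted p under 0.05, and Notch1 did not pass in any. Dll1 passed in 5 of 13, also with TMM and with library size only (adjusted p = 0.0484 and 0.0452 from edgeR). With the replicate block 2 members were higher and 3 lower, Notch4 not passing (adjusted p = 0.0575 from edgeR), and over all genes 4304 were higher and 4023 lower against 4441 and 4167 without it. Same-numbered libraries did not deviate together (r = -0.015, -0.023 and -0.053 over genes), so the numbers were not taken as pairs. Depth limits Notch3, Notch4 and Hey1.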
